A study of Mus musculus with 20 samples.

Results

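The endocannabinoid receptor Cnr1 and 6 genes for enzymes that make or break down its ligands were followed in RNA sequencing of mouse striatum. The 7 genes were Cnr1, Dagla, Daglb, Mgll, Faah, Napepld and Abhd6, found by symbol among the 26475 loci that carry a symbol in the count table. Where a symbol had several loci, the one with the highest mean count was used. All 7 passed the filter on low counts, as did 17206 loci in all. The animals were 20 male mice of about 6 months, labelled as Collaborative Cross, with 10 from a line bred for overactivity in its home cage (the overactive line) and 10 control mice. In each line, 5 received saline and 5 received d-amphetamine at 25 mg/kg, a psychostimulant that raises extracellular dopamine, and the whole striatum was taken 2 hours later. The drug was given once at a single dose and studied at a single time, and a difference between the lines cannot be told apart from any other genetic difference between them.

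Endocannabinoids are lipid messengers that neurons make on demand from membrane lipids and that mostly act backwards across the synapse. In the striatum, depolarised projection neurons release 2-arachidonoylglycerol (2-AG), which binds CB1, the product of Cnr1, on incoming terminals and lowers transmitter release. Dagla and Daglb encode the diacylglycerol lipases that make 2-AG, with Dagla the main form in adult brain. Mgll encodes monoacylglycerol lipase, the main enzyme that breaks 2-AG down, and Abhd6 a postsynaptic hydrolase that shares this role. Napepld encodes a phospholipase that makes anandamide, the other main ligand, and Faah the hydrolase that degrades it.

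Library totals ran from 31393788 to 53773028 counts. Expression is given as TMM-scaled CPM (reads of a gene among all reads of its library, scaled), and tests are edgeR quasi-likelihood tests with Benjamini-Hochberg adjustment over all 17206 loci. A gene passed at an adjusted p under 0.05. The tissue label was set beside markers by their level per kilobase of exon. The median was 79.8 CPM per kb over 13 markers of striatal projection neurons, 5.31 over 19 cortical and hippocampal excitatory markers and 3.21 over 15 thalamic, hypothalamic and septal markers. Single markers ran from 4.45 to 683 in the striatal list, 0.28 to 62.6 in the cortical and 0.077 to 15.3 in the thalamic, so the lists overlap. Markers of these neighbouring regions varied between libraries. Summed CPM of the 19 cortical and hippocampal markers was 717 to 870.2 in overactive saline libraries, against 838 to 1485 in control saline, 1228 to 1559 in control amphetamine and 745 to 1682 in overactive amphetamine. Summed CPM of the 15 thalamic, hypothalamic and septal markers ran from 267 to 632 in overactive saline, 223 to 563 in overactive amphetamine, 212 to 355 in control saline and 217 to 269 in control amphetamine. The 4 libraries with the highest thalamic scores were overactive saline 1 and 4 and overactive amphetamine 2 and 3.

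Per kilobase of exon, over all 20 libraries, Cnr1 stood highest at 52.2 ± 10.8 CPM per kb (SD, n = 20). The 2-AG hydrolases followed, Mgll at 32.7 ± 4.24 and Abhd6 at 24.7 ± 2.85 CPM per kb, and then the lipase Dagla at 16.1 ± 2.54. The remaining genes were lower, with Faah at 4.99 ± 0.927, Daglb at 3.34 ± 0.297 and Napepld at 2.53 ± 0.433 CPM per kb. This order held between neighbours in 20 of 20 libraries, except that Cnr1 exceeded Mgll in 19 of 20. Among these neighbours, only for Dagla and Faah did the ranges over libraries stay apart. The exon lengths are unions of annotated exons within the counted locus, so that use of shorter isoforms would raise a gene's level per kb.

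The genes lie on 5 chromosomes of GRCm38 (GENCODE M21 gene spans). Cnr1 spans chr4:33924593-33948831 on the plus strand and Faah chr4:115967145-116017926 on the minus strand. Dagla spans chr19:10245265-10304877 on the minus strand, and Daglb chr5:143464584-143505942 on the plus strand. Napepld spans chr5:21662901-21701396 on the minus strand, Mgll chr6:88724412-88828360 on the plus strand and Abhd6 chr14:8002902-8056763 on the plus strand. The loci counted differ from these spans at their ends. Those of Cnr1 (33923236-33949152), Napepld (21645803-21701414), Mgll (88716425-88828360) and Abhd6 (8002886-8062846) run past the annotated gene, so their counts need not all be of that gene. The Faah locus (115996655-116018636) starts inside the gene and leaves part of it out. Annotated exons of Daglb overlap those of Rac1 on the opposite strand by up to 2309 bases, and exons of Mgll overlap those of Gm26588 by up to 90 bases. The overlaps were measured over whole genes. The Daglb locus counted ends at 143504442, inside the gene, and how much of its overlap lies in the locus was not computed. Strand use in the counting is not given in the sources used here, so reads in these stretches cannot be assigned to one gene with certainty.

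Promoter windows of 300 bases, from 250 before to 50 after a start, were held in RefSeq for 6 of the 7 genes (not Dagla; build GRCm38.p6). They were searched on both strands for TGACGTCA (cAMP response element), TGANTCA (AP-1), GCGGGGGCG and GCGTGGGCG (2 forms of the EGR motif) and GGGCGG (GC box). The first 2 are bound by factors that dopamine signalling activates, and neither letter string occurred in any of the members' windows. Among 32851 promoter windows, 1.79% held the first and 7.81% the second. An EGR form occurred in 2 of the 6 members with a window, and those windows are shown for that reason, with motif matches in capitals. The Faah window (chr4:116017875-116018174, minus strand) holds GCGTGGGCG, found in 0.612% of all windows, as its reverse complement just after the start, together with 2 GC boxes. The first Mgll window (chr6:88724162-88724461, plus strand) holds GCGGGGGCG, found in 2.91% of all windows, also as its reverse complement, overlapping its 1 GC box. These shares are for 1 window and 1 form. Both forms were searched, and Cnr1, Mgll and Abhd6 had more than 1 window each, so a match is less rare than the shares read. The letters G and C made up 57.7% of the Faah window and 70% of this Mgll window, beside a median of 52.7% over all windows.
Faah: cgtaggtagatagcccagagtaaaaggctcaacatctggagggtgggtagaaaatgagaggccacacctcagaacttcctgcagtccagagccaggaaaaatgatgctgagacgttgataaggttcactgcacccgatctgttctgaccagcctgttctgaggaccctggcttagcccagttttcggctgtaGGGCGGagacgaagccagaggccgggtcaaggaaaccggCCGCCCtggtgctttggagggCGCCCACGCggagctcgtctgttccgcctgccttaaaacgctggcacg
Mgll: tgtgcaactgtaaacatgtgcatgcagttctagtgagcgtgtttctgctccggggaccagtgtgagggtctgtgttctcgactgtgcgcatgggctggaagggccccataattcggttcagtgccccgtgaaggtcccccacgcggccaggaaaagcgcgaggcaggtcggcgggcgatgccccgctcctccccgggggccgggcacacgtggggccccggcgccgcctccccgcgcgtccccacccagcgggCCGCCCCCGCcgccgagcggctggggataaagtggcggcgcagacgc
GC boxes, which 35.7% of all windows hold, numbered 5 in the window of the first Cnr1 start (chr4:33924014-33924313), which is 76.3% G and C. They numbered 0 in the Cnr1 windows that begin at 33924394 and 33926130, and 0 in Napepld and Daglb. Each window of Mgll and Abhd6 held 1. A match to letters is a description of the window and no evidence of binding.

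Across the members, 1 of 49 member-by-comparison tests passed. Overactive against control line over both treatments, 1 of 7 genes passed, as lower, beside 7.02% of all tested loci, 3.31% of them lower. In saline 0 of 7 passed, beside 1.11% of all loci, and under amphetamine 0 of 7, beside 0.453%. All 7 fold changes of the line in saline were below 0, with a median log2 of -0.21, against a median of -0.00027 over all loci. That shared direction did not hold throughout: 4 of the 7 were above 0 with regional marker scores as covariates (Daglb, Mgll, Faah and Abhd6), and Mgll also was when 1 library was left out (up to 0.0078). Unadjusted p was under 0.05 for 2 of 7 members in saline, 0 of 7 under amphetamine and 2 of 7 over both treatments, beside 17.3%, 12.9% and 25.6% of all loci. No member passed for amphetamine against saline in the control line (0%), in the overactive line (0%) or over both lines (0%), nor for the interaction of line and drug (0%), and edgeR called no locus in those 4 comparisons. Unadjusted p was under 0.05 for 0, 2, 2 and 0 of 7 members there, beside 5.56%, 8.03%, 11% and 2.96% of all loci. DESeq2 called 0, 40, 161 and 0 loci in the same 4 comparisons and limma-voom 0 in each, none of them a member. Ranges of the 2 groups overlapped for all 7 members in each of the 4 pairs of groups. Over all loci the share whose groups did not overlap was 1% for amphetamine in the control line, 0.761% for amphetamine in the overactive line, 4.26% for the line in saline and 2.93% for the line under amphetamine.

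Dagla, the main 2-AG synthase of adult brain, was lower in the overactive line. In control saline the 5 libraries stood at 105, 84.3, 88.1, 93.1 and 116 CPM, and in overactive saline at 66.6, 86.8, 75.3, 68.7 and 82.5 CPM. The groups overlap, with 4 of 5 overactive libraries below the lowest control. After amphetamine the control libraries stood at 103, 119, 107, 93.3 and 100.2 CPM and the overactive at 101, 74.3, 88.6, 102 and 92.6 CPM, with 3 of 5 overactive libraries below the lowest control. Over both treatments the log2 difference was -0.27 (SE 0.071, 95% interval -0.42 to -0.12, edgeR adjusted p = 0.0266). The difference was -0.36 in saline (SE 0.10, adjusted p = 0.0786) and -0.19 under amphetamine (SE 0.10, adjusted p = 0.445). In this bulk tissue, fewer cells that express a gene and less RNA per cell cannot be told apart. The call ended when any 1 of 6 libraries was left out (control saline 1 or 5, control amphetamine 2, overactive saline 1 or 4, overactive amphetamine 2), with adjusted p of 0.0507 to 0.0581, and in 2 fits on regional markers described further on.

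Markers of several cell types also differed with the line over both treatments, where 7.02% of all loci passed. Of 7 astrocyte markers 6 were above 0 and 3 passed as higher (Gja1, Aldh1l1 and Fgfr3, log2 0.20 to 0.32), with summed CPM of 1126 to 1434 in overactive saline and 1072 to 1256 in overactive amphetamine, against 1027 to 1156 and 1036 to 1137 in the control groups. Of 9 oligodendrocyte markers 7 were above 0 and 1 passed (Mobp, log2 0.32), and summed CPM was 3403 to 4317 in overactive saline and 3468 to 4445 in overactive amphetamine, against 2545 to 4000 and 2910 to 4190 in the control groups. The lists held 8 astrocyte and 10 oligodendrocyte genes. Of each list 1 gene, Slc1a2 and Mbp, was at 0 counts in all 20 libraries and is missing from these sums. All 8 choroid plexus markers were above 0 with a median log2 of 0.87, but none passed in edgeR (unadjusted p under 0.05 for 0), and summed CPM ran from 24.8 to 939 over the 20 libraries. Of 14 striatal projection neuron markers 12 were below 0 and none passed (median log2 -0.12, unadjusted p under 0.05 for 3), with summed CPM of 5219 to 8506 and 5702 to 7911 in overactive saline and amphetamine, against 6535 to 8272 and 6986 to 8314 in the control groups. Of 19 cortical markers 14 were below 0, with Slc30a3 and Bhlhe22 passing as lower and Cux1 as higher, and 15 of 15 thalamic markers were above 0, none passing (unadjusted p under 0.05 for 8). In the other lists Rgs5 and Htr3a passed as higher and Aif1 as lower. Apart from fits with the cortical and thalamic scores, described further on, the part of the cell type markers in the Dagla difference was not tested.

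For amphetamine against saline within the overactive line, 4 of 5 treated libraries of Dagla lay above the highest saline library, which is a partial separation. Its group mean was 76.0 ± 8.67 CPM in saline and 91.6 ± 11.2 CPM after amphetamine (SD, n = 5). That difference did not pass (log2 0.27, SE 0.10, adjusted p = 0.449, edgeR), and in the control line it was 0.10 (SE 0.10). The response did not differ detectably between lines (log2 0.17, 95% interval -0.13 to 0.47).

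Daglb, the second diacylglycerol lipase, varied least among the members relative to its mean. Control saline libraries stood at 27.0, 25.4, 26.5, 26.3 and 30.7 CPM, and overactive saline libraries at 28.8, 25.9, 22.7, 22.5 and 26.4 CPM. Control amphetamine libraries stood at 28.6, 27.9, 26.9, 29.1 and 30.4 CPM, and overactive amphetamine libraries at 27.2, 24.0, 27.0, 30.7 and 24.4 CPM. All group pairs overlap. The line difference over both treatments was log2 -0.10 (95% interval -0.22 to 0.011), and amphetamine against saline over both lines 0.073 (95% interval -0.041 to 0.19); neither passed (edgeR adjusted p = 0.243 and 0.659).

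Mgll, the main 2-AG hydrolase, showed no difference past the test. In control saline it stood at 196, 156, 163, 126 and 175 CPM and after amphetamine at 172, 181, 166, 178 and 192 CPM. In overactive saline it stood at 159.9, 149.9, 135, 138 and 197 CPM and after amphetamine at 165, 142, 153, 196 and 185 CPM. Control amphetamine libraries were the closest together (178 ± 9.60 CPM, SD, n = 5), while control saline ran from 126 to 196, overactive saline from 135 to 197 and overactive amphetamine from 142 to 196 CPM. Amphetamine against saline over both lines gave log2 0.12 (95% interval -0.051 to 0.29, edgeR adjusted p = 0.622), and the line difference over both treatments -0.073 (95% interval -0.24 to 0.095, adjusted p = 0.602).

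Abhd6, the postsynaptic 2-AG hydrolase, stood at 67.9, 58.3, 52.5, 54.1 and 61.2 CPM in control saline and 59.0, 63.8, 66.4, 65.6 and 61.1 CPM in control amphetamine. In overactive saline it stood at 55.9, 48.0, 52.2, 52.1 and 55.6 CPM and in overactive amphetamine at 68.8, 55.2, 45.0, 60.1 and 65.8 CPM. Overactive amphetamine holds both the highest and the lowest of the 20 values, and 3 of its 5 libraries exceed every overactive saline library. Amphetamine against saline over both lines gave log2 0.13 (SE 0.065, unadjusted p = 0.0540, edgeR adjusted p = 0.461). The line difference over both treatments was -0.13 (SE 0.065, adjusted p = 0.222).

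**Figure D1:**
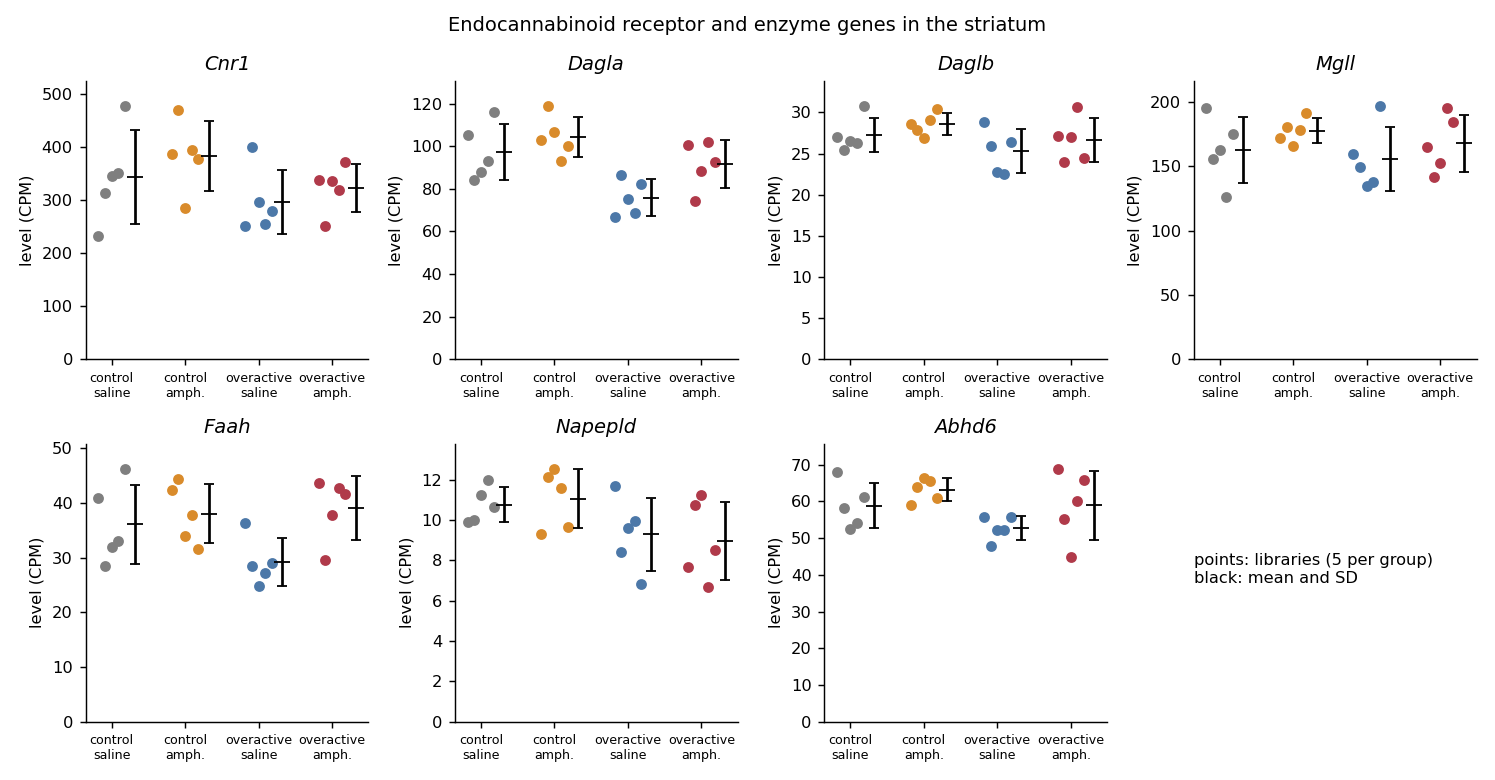
Level of each gene in CPM (vertical axis, from 0) in the 4 groups, with 1 point per library and the mean and SD of 5 libraries in black. Dagla is lowest in overactive saline (mean 76.0 CPM), and the groups of every gene overlap.

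Napepld, which makes anandamide, was the lowest member per kilobase. It stood at 9.91, 9.99, 11.2, 12 and 10.7 CPM in control saline and 11.7, 8.41, 9.61, 9.94 and 6.85 CPM in overactive saline. After amphetamine it stood at 9.32, 12.1, 12.5, 11.6 and 9.67 CPM in the control line and 7.70, 10.7, 11.2, 6.69 and 8.51 CPM in the overactive line. In each treatment 3 of 5 overactive libraries lay below the lowest control. The line difference over both treatments was log2 -0.26 (95% interval -0.47 to -0.039, unadjusted p = 0.0229) and did not pass (edgeR adjusted p = 0.129). Amphetamine against saline gave -0.0070 over both lines (95% interval -0.22 to 0.21).

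Faah, which degrades anandamide, had the largest amphetamine difference of the 7 members, in the overactive line. Overactive saline libraries stood at 36.4, 28.4, 24.9, 27.3 and 29.1 CPM and overactive amphetamine libraries at 43.7, 29.5, 37.8, 42.7 and 41.6 CPM, with 4 of 5 treated libraries above every saline one. In the control line the values were 40.9, 28.5, 32.1, 33.1 and 46.2 CPM in saline and 42.4, 44.5, 34.1, 37.9 and 31.5 CPM after amphetamine, where the treated range lies inside the saline range. The log2 difference was 0.42 in the overactive line (95% interval 0.13 to 0.71, unadjusted p = 0.00648, edgeR adjusted p = 0.428) and 0.074 in the control line (95% interval -0.21 to 0.36). It did not pass, nor did the difference between the lines (0.35, SE 0.19, unadjusted p = 0.0902). The lines differed by -0.31 in saline (SE 0.14, adjusted p = 0.256) and by 0.039 under amphetamine (SE 0.14). Of 19 cortical and hippocampal markers in the same comparison, 15 were above 0 and 4 below, with a median log2 of 1.13, and 0 passed in edgeR (unadjusted p under 0.05 for 11). Slc17a7, which loads glutamate into vesicles in cortical neurons, was 78.5 to 227 CPM in overactive saline and 127 to 715 CPM in overactive amphetamine (edgeR adjusted p = 0.357).

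Cnr1, which encodes CB1, had the widest spread between libraries relative to its mean. Control saline libraries stood at 232, 313, 346, 351 and 477 CPM and overactive saline libraries at 251, 399.7, 297, 255 and 279 CPM. Control amphetamine libraries stood at 387, 469, 285, 394 and 378 CPM and overactive amphetamine libraries at 338, 250.2, 336, 319 and 371 CPM. Control saline holds both the lowest and the highest of the 20 values, so that every other group lies within its range. The line difference over both treatments was log2 -0.23 (95% interval -0.48 to 0.018, edgeR adjusted p = 0.231), and amphetamine against saline over both lines 0.14 (95% interval -0.11 to 0.39, adjusted p = 0.718). Both intervals include 0.

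**Figure D2:**
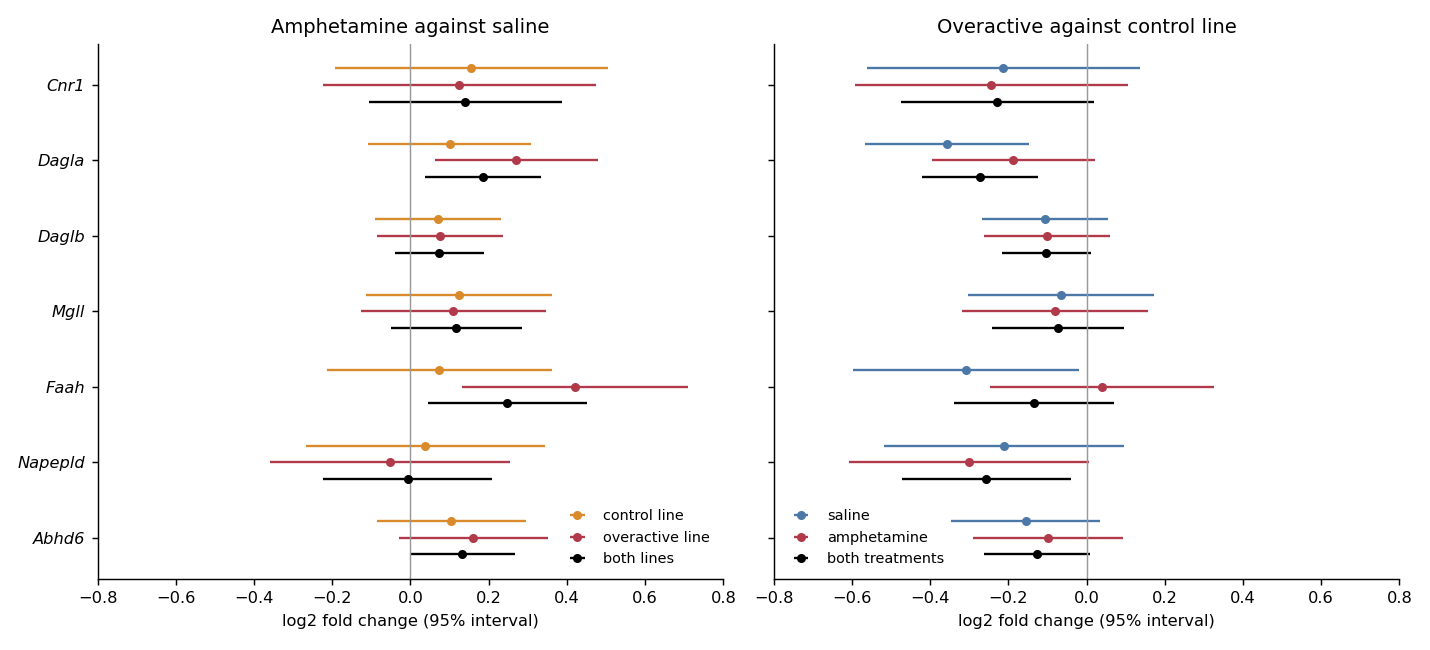
Log2 fold change of each gene (horizontal axis) with its 95% interval from edgeR, for amphetamine against saline (left) and overactive against control line (right). Dagla over both treatments (log2 -0.27) is the 1 difference that passed, and all 7 line differences in saline lie below 0 in this fit, 4 of them above 0 with regional marker scores as covariates.

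The balance of synthesis to breakdown (Dagla to Mgll, Napepld to Faah) and of the 2 diacylglycerol lipases (Dagla to Daglb) was compared within each library. Each was taken as the log2 ratio of 2 genes' counts. The tests were two-sided permutations of libraries within strata (63504 regroupings), with p adjusted over 6 tests. The ratio of Dagla to Mgll was lower in the overactive line by a mean log2 difference of -0.20 (-0.29 in saline, -0.10 under amphetamine), with permutation p = 0.0290 and adjusted p = 0.0870. Dagla to Daglb differed by -0.17 (permutation p = 0.0281, adjusted p = 0.0870). The ratio of Napepld to Faah, the anandamide pair, differed between amphetamine and saline by -0.052 in the control line and -0.47 in the overactive line (permutation p over both = 0.127, adjusted p = 0.206). None of the 6 tests passed after adjustment. These ratios use mRNA and say nothing of enzyme activity or lipid levels.

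Several members varied with the regional markers from library to library. Each library got a score per list, averaging over its markers how far log2 CPM lay from the marker's own mean, and 42 relations of members to 3 scores were computed, with 100000 permutations each. Faah followed the cortical score (r = 0.85, rho = 0.86, n = 20, permutation p = 1e-05 for each, the smallest that could be given, adjusted p = 0.00042). The relation of Faah held for deviations from the group means (r = 0.78, rho = 0.79, permutation adjusted p = 0.00134 and 0.0016) and without the 2 libraries farthest in score (r = 0.82 over all libraries, 0.74 for deviations). The mean cortical score was -0.60 ± 0.33 in overactive saline and 0.17 ± 0.48 in overactive amphetamine (SD, n = 5), the groups between which Faah differed most.

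Dagla ran against the thalamic score (r = -0.80, rho = -0.71, n = 20, permutation p = 6e-05 and 0.00068, adjusted 0.00126 and 0.00357). Within groups the relation was as close (r = -0.82, rho = -0.79, permutation adjusted p = 0.00134 and 0.00245), and without the 2 farthest libraries r was -0.71 over all libraries and -0.77 within groups. Napepld went the other way: over all libraries its relation did not pass (r = 0.34, rho = 0.35, permutation adjusted p = 0.228 and 0.214), but within groups it rose with the thalamic score (r = 0.78, rho = 0.77, permutation adjusted p = 0.003 and 0.00357; r = 0.78 without the 2 farthest). The mean thalamic score was 0.41 ± 0.93 in overactive saline and 0.25 ± 0.84 in overactive amphetamine, against -0.18 ± 0.71 and -0.48 ± 0.20 in the control groups.

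Mgll followed the cortical score as well (r = 0.68, rho = 0.67, permutation adjusted p = 0.00523 and 0.00821; within groups r = 0.68, rho = 0.69, adjusted p = 0.0161 and 0.0226). Without the 2 farthest libraries its r was 0.63, and 0.59 within groups. Over all libraries Dagla, Daglb and Abhd6 also rose with the cortical score (r = 0.75, 0.70 and 0.72, permutation adjusted p = 0.00134, 0.0042 and 0.00294). Within groups their r was 0.47, 0.61 and 0.57 (permutation adjusted p = 0.14, 0.056 and 0.103). Mgll and Abhd6 ran against the thalamic score over all libraries (r = -0.66 and -0.58, permutation adjusted p = 0.00693 and 0.0271). Within groups neither passed by r (permutation adjusted p = 0.0516 and 0.151). Cnr1 passed for none of the 3 scores. The points share library and depth with the scores.

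**Figure D3:**
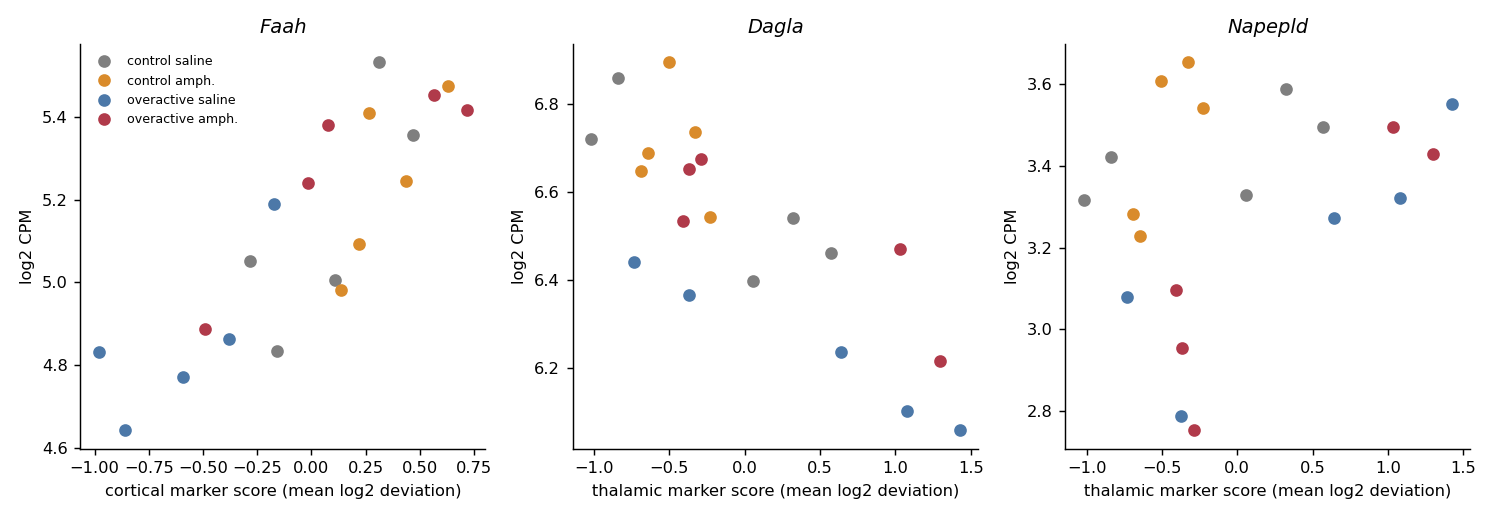
Log2 CPM (vertical axis) of Faah against the cortical marker score, and of Dagla and Napepld against the thalamic marker score, 1 point per library, coloured by group. Faah rises with the cortical score (r = 0.85) and Dagla falls with the thalamic score (r = -0.80), while Napepld rises with it within groups (r = 0.78).

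With the cortical and thalamic scores as covariates, Dagla no longer passed for the line and Napepld did. Dagla stood at log2 -0.11 over both treatments (SE 0.052, edgeR adjusted p = 0.333), and Napepld passed at -0.46 (SE 0.093, adjusted p = 0.0237). Without the 4 libraries highest in thalamic markers the same exchange was seen, with Dagla at -0.17 (SE 0.070, adjusted p = 0.230) and Napepld at -0.46 (SE 0.093, adjusted p = 0.0252). All 4 are libraries of the overactive line. Both fits use the thalamic score, with which Dagla and Napepld varied within groups (r = -0.82 and 0.78). Neither fit is therefore an independent check of the other. The amphetamine difference of Faah in the overactive line was 0.032 with the covariates (SE 0.12) and 0.65 without the 4 libraries (SE 0.16, adjusted p = 0.0772). Mgll changed sign for the line over both treatments, from -0.073 to 0.13 with the covariates (adjusted p = 0.367). Over all loci, 1208 were called for the line over both treatments, 185 with the covariates and 323 without the 4 libraries.

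**Figure D4:**
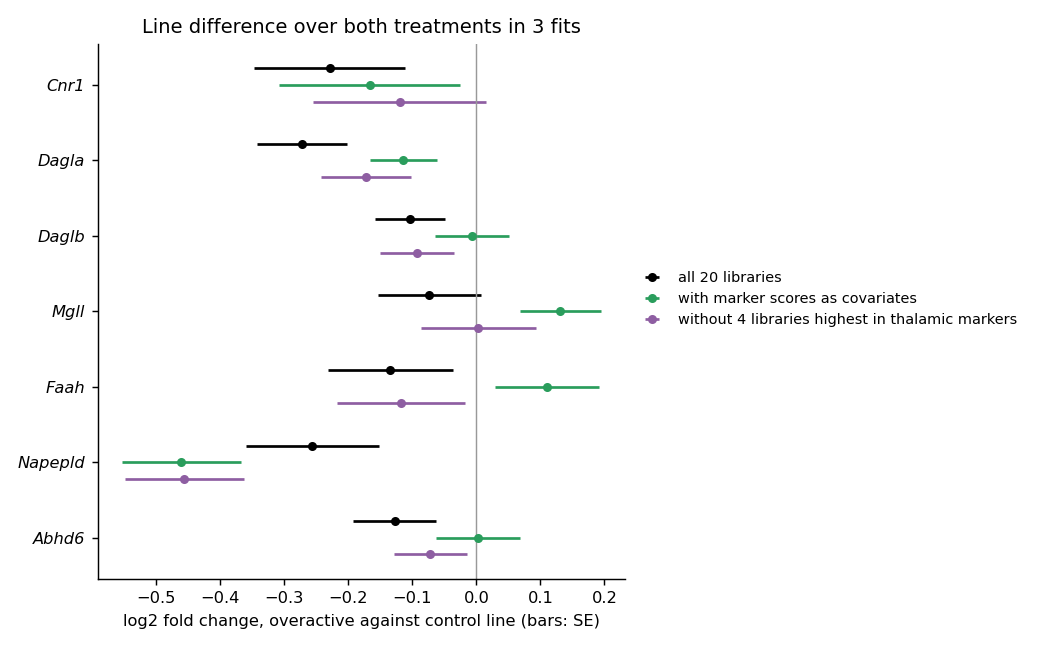
Log2 fold change of the overactive against the control line over both treatments (horizontal axis, bars SE) for each gene in 3 fits: all 20 libraries, marker scores as covariates, and without the 4 libraries highest in thalamic markers. Dagla moves from -0.27 to -0.11 and -0.17, and Napepld from -0.26 to -0.46 in both other fits. Both other fits use the thalamic score, and the 4 libraries left out are all of the overactive line.

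The genes whose levels ran most closely with 3 members were taken from 11688 loci with a mean of at least 5 CPM, by Pearson r of deviations from group means over 20 libraries. For Cnr1 they were Tmem90a (r = 0.85), Thsd7a (0.85) and Rgs7bp (0.84), for Dagla Acvr1 (0.94), Fbxo41 (0.93) and Atg9a (0.91), and for Mgll Fezf2 (0.94) and Tmem178 (0.93). Fezf2, a transcription factor of deep-layer cortical neurons, is itself among the cortical markers. Among the members, r was 0.60 for Dagla with Faah, 0.61 for Daglb with Faah, -0.50 for Dagla with Napepld and -0.64 for Mgll with Napepld. Cnr1 with Mgll stood at 0.022. These are descriptions over the same 20 libraries, which share depth and tissue make-up.

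Of 33 other genes of the pathway, 29 were tested; Gpr18, Gpr119, Trpv1 and Alox15 did not pass the filter on low counts. Overactive against control line over both treatments, 1 of 29 passed as higher and 1 as lower, beside 3.71% and 3.31% of all loci, and in saline 1 passed, as higher, beside 0.639%. For amphetamine 0 of 29 passed in edgeR in each line or over both, beside 0% of all loci, with unadjusted p under 0.05 for 2 genes in the control line, 2 in the overactive line and 5 over both, beside 5.56%, 8.03% and 11% of all loci. The higher gene was Gpr55, which encodes a lysolipid receptor that some cannabinoids bind. It stood at 2.28, 2.48, 1.60, 5.65 and 1.28 CPM in control saline and 8.73, 13.9, 11.2, 7.25 and 10.0 CPM in overactive saline, groups that do not overlap (as for 4.26% of all loci). After amphetamine it stood at 2.60, 1.57, 2.06, 2.11 and 6.10 CPM in the control line and 6.80, 6.91, 6.40, 3.73 and 13.2 CPM in the overactive line, which overlap. The log2 difference was 1.94 in saline (SE 0.41, adjusted p = 0.0268) and 1.65 over both treatments (SE 0.29, adjusted p = 0.00286). Over both treatments the call held with the covariates (1.34, adjusted p = 0.0284) and without the 4 libraries (1.79, adjusted p = 0.0178), while in saline it ended (adjusted p = 0.262 and 0.0632). In saline it also ended without control saline 1, 2, 3 or 5 or overactive saline 3 (adjusted p = 0.0538 to 0.0731). Exons of Gpr55 overlap those of 4933407L21Rik on the opposite strand by up to 71 bases. The locus used (chr1:85933152-85973399) runs past both ends of the annotated gene (85938318-85961007), so its counts need not all be Gpr55. A second locus with this symbol held 10 to 31 counts per library, and its differences are not reported here.

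The lower gene was Naaa, an acid amidase of lysosomes that hydrolyses anandamide-like amides. It stood at 37.7, 23.3, 30.5, 31.5 and 33.0 CPM in control amphetamine and 20.2, 21.7, 22.7, 19.5 and 20.4 CPM in overactive amphetamine, groups that do not overlap (as for 2.93% of all loci). In saline it stood at 27.5, 24.5, 33.7, 20.6 and 38.0 CPM in the control line and 22.4, 26.9, 20.8, 23.8 and 30.2 CPM in the overactive line, which overlap. The log2 difference was -0.40 over both treatments (SE 0.10, edgeR adjusted p = 0.0259) and -0.58 under amphetamine (SE 0.15, adjusted p = 0.0836). The call ended with the covariates (-0.35, adjusted p = 0.225), without the 4 libraries (-0.40, adjusted p = 0.136) and without control saline 5 (adjusted p = 0.0502).

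Genes that act beside CB1 or supply the 2-AG precursor did not pass. Over both treatments the line difference was log2 -0.070 for Cnrip1 (SE 0.085), which encodes a protein that binds the CB1 tail, and -0.058 for Sgip1 (SE 0.038), whose product slows CB1 internalisation. It was -0.033 for Grm5 (SE 0.070), the glutamate receptor that drives 2-AG release, and -0.15 for Plcb1 (SE 0.067, unadjusted p = 0.0315, adjusted p = 0.153), the phospholipase downstream of it. Abhd12, a further 2-AG hydrolase, differed by -0.0077 (SE 0.030).

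**Figure D5:**
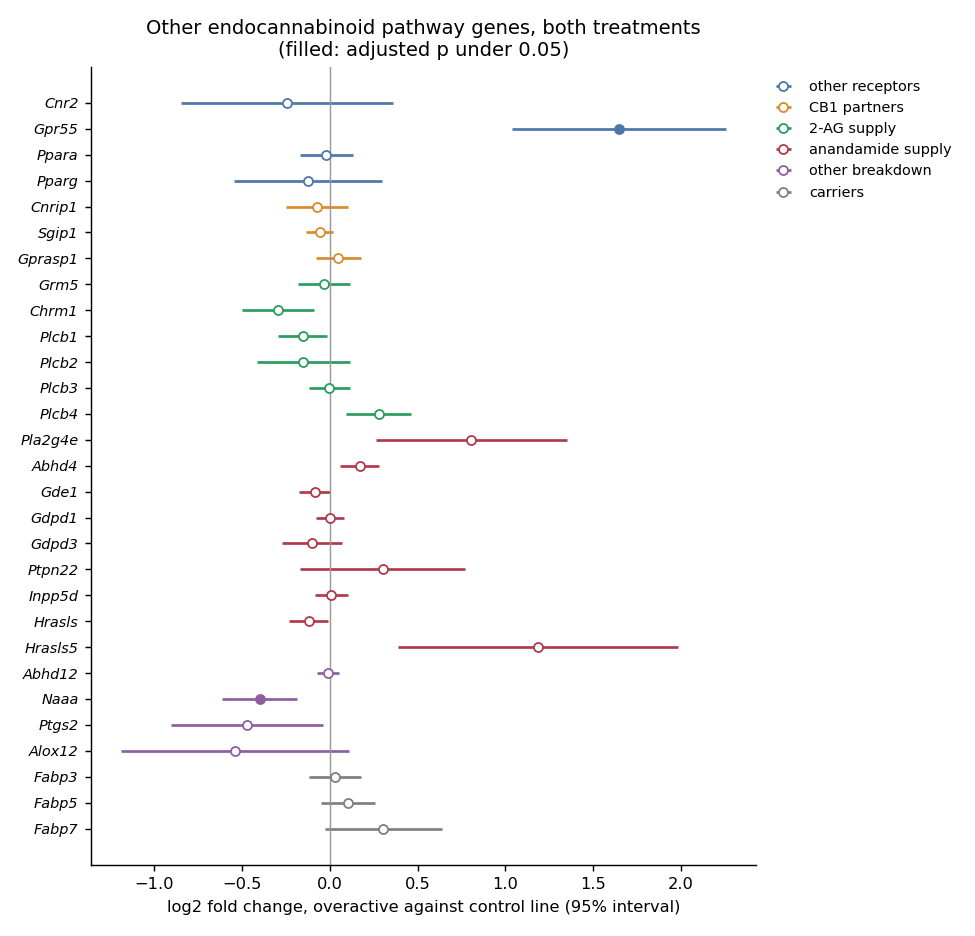
Log2 fold change of the overactive against the control line over both treatments (horizontal axis, 95% interval from edgeR) for 29 other pathway genes, coloured by role, filled where the adjusted p is under 0.05. Gpr55 (1.65) and Naaa (-0.40) are filled.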

How the data were processed

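Whole striatum of 20 male mice was profiled by paired-end RNA sequencing, per the labels. The authors deposited 1 table of expected counts per locus, not scaled between libraries; 93.9% of the values were whole within 0.01, and all were rounded. The submitters' processing notes name mm10 and GRCm38; the aligner and counter are not given in the sources used here. Of 37051 loci, 10576 without a symbol (0.65% of counts) were left out.

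The main tests used edgeR 4.0.16 in R 4.3.3. Loci were filtered by filterByExpr on the 4 groups and scaled by TMM, a quasi-likelihood model was fitted with a mean for each group over all 20 libraries, and 7 comparisons were read from it. The design text counts 20 mice for the 20 libraries, so each was taken as 1 mouse, and p-values measure the spread between them. Log2 CPM used a prior count of 2. Other settings tried were 2 further scalings (RLE and upper quartile), 2 further filters (none, and 1 CPM in 5 libraries), DESeq2 1.42.0, limma-voom (limma 3.58.1), only the groups compared, a replicate block, regional marker scores as covariates, leaving out the 4 libraries highest in thalamic markers, and leaving out each library. Permutations used Python 3.11.15 with numpy 2.4.6, and figures matplotlib 3.10.9. On simulated data for the line over both treatments (17086 genes), 50 genes were changed at each fold. The share of changes found was 42% at a fold of 1.2, 72% at 1.35, 84% at 1.5 and 100% at 2. Of 155 calls there, 6 were false. Whether these values hold for the real libraries was not tested. Those vary in regional markers and gave 1208 calls of 17206 loci in this comparison, and the adjustment of p depends on how many genes differ.

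The members, lists and alternatives were chosen with earlier results of these data known. Named were all members, pathway genes that passed, 5 pathway genes in any case (Cnrip1, Sgip1, Grm5, Plcb1, Abhd12), and the 3 genes closest to each of Cnr1, Dagla and Mgll, of which 1 is not reported here.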

Additional observations from a re-analysis of the deposited data

Results flagged for a closer look

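A second, weaker locus with the symbol Abhd6 was left out of the comparisons because it did not pass the filter on low counts. Nearly all of its few counts lay in 1 group. Its counts were 21, 4, 12, 12 and 12 in control amphetamine libraries 1 to 5 (median 12). It was at 0 in all control saline and overactive amphetamine libraries, and in overactive saline it was at 0 except for 4 counts in library 5. The difference was not tested, and counts this low cover little of the library's depth. The strand of this locus is not given in the table. Of 28 member-by-group sets of 5 libraries, 0 held a library far enough from the others to stand out (gap over range above 0.71), where chance gives about 1 in 20.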

How the results depend on the processing

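Of 49 member fold changes, 24 changed sign in at least 1 alternative, as did 3 of 8 of other pathway genes. The call of Dagla over both treatments held under RLE and upper quartile scaling, no filter, 1 CPM in 5 libraries, DESeq2 (adjusted p = 0.00613), limma-voom and the replicate block (log2 -0.27, edgeR adjusted p = 0.0425). DESeq2 also called 1 member in saline (Dagla, adjusted p = 0.0256), where edgeR called 0. Leaving out each library in turn gave 0 to 1 members for the line over both treatments, -0.23 to -0.16 for the ratio of Dagla to Mgll and -0.19 to -0.12 for Dagla to Daglb. Both ratios passed without control amphetamine 4 (-0.22 and -0.19, permutation adjusted p = 0.0489). Loci called for the line over both treatments numbered 1208 in edgeR and 2095 in DESeq2. Replicate numbers were not taken as pairs in the main fit. For deviations from group means, median r was 0.035 for same-numbered and -0.0085 for other-numbered pairs. Same-numbered pairs ran from -0.23 to 0.25, and these values do not settle whether the numbers pair any libraries. The replicate block changed no call of a member.

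Signs turned with marker scores as covariates for these log2 values, and the cause was not tested. For the line in saline they were 0.044 for Daglb, 0.21 for Mgll, 0.067 for Faah and 0.028 for Abhd6. Under amphetamine Mgll was 0.052, and over both treatments Mgll was 0.13, Faah 0.11, Abhd6 0.0024, Cnrip1 0.12 and Abhd12 0.042. For amphetamine in the overactive line they were -0.084 for Daglb, -0.13 for Mgll, -0.012 for Abhd6 and 0.026 for Napepld. For amphetamine in the control line Faah was -0.056, and over both lines Daglb was -0.034, Mgll -0.053, Faah -0.012 and Napepld 0.074. For the difference in response they were 0.058 for Cnr1, -0.10 for Daglb and -0.050 for Abhd6. Without the 4 libraries highest in thalamic markers, Mgll was 0.065 for the difference in response, and for the line 0.035 under amphetamine and 0.0029 over both treatments. There Abhd6 was 0.041 for the line under amphetamine, and Grm5 0.056 and Abhd12 0.016 over both treatments. For the difference in response limma-voom gave 0.012 for Cnr1 and 0.043 for Mgll, and upper quartile scaling gave 0.0042 for Abhd12 for the line over both treatments.

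Leaving out 1 library turned 12 fold changes. For the difference in response, Cnr1 ran from -0.18 to 0.10, Daglb from -0.050 to 0.052, Mgll from -0.088 to 0.083 and Abhd6 from -0.0050 to 0.14. For amphetamine, Napepld ran from -0.011 to 0.094 in the control line, -0.15 to 0.040 in the overactive line and -0.055 to 0.041 over both, and Faah from -0.00035 to 0.18 in the control line. For the line, Faah ran from -0.021 to 0.12 under amphetamine, Mgll from -0.16 to 0.0078 in saline, Grm5 from -0.082 to 0.0052 and Abhd12 from -0.016 to 0.0059 over both treatments.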

Other observations

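A second locus with the symbol Mgll, at the same span as the one used, held 35 to 150 counts per library. Its log2 difference between the lines over both treatments was -0.29 (SE 0.18, edgeR adjusted p = 0.317), and none of the 7 comparisons passed there. Cnr2, the CB2 receptor of immune cells, stood between 0.143 and 0.774 CPM over the 20 libraries, with a line difference of log2 -0.24 (SE 0.29) over both treatments.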
